A study of Rattus norvegicus with 10 samples.

Results

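The genes described are 8 that the label groups as cholesterol synthesis and uptake: Fdft1, Nsdhl, Insig1, Hmgcs1, Sqle, Fdps, Idi1 and Cyp51. They encode 7 enzymes of sterol synthesis and 1 regulator of it, Insig1. None is a lipoprotein receptor or transport protein, so they are called cholesterol synthesis genes here, and uptake genes are given separately. A probe set counted as a member when the array's probe table gave it a member as its only gene symbol. This gave 18 of 8799 probe sets, of which 17 passed a filter on low intensity and were tested. They covered 7 of the 8 genes, since Hmgcs1 had 0 probe sets named in this way and was not analysed here. The expression arrays measured total RNA from rat liver in 5 groups of 2 arrays, with sham livers as the 0 h control and burned rats sampled at 1, 4, 8 and 24 h. Strain, age, burn size and anaesthesia are not given in the labels. Whether a group's arrays come from different animals is not stated, so a p-value here reflects array-to-array spread alone, which may be technical. Of the genes named by the probe table, 4737 had a probe set and 3143 were tested.

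Cholesterol is built from acetyl-CoA in the endoplasmic reticulum and cytosol, and the liver is a main site of its synthesis. Hmgcs1 makes HMG-CoA, Idi1 and Fdps turn the isoprenoid units made from mevalonate into farnesyl diphosphate, and Fdft1 (squalene synthase) joins these into squalene. Sqle adds oxygen to squalene, and Cyp51 and Nsdhl take methyl groups off the sterol ring made from it. The genes are classic targets of the SREBP transcription factors, whose release to the nucleus falls when sterols are plentiful. Insig1, itself an SREBP target, holds the SREBP escort protein in the endoplasmic reticulum and helps to degrade HMG-CoA reductase.

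RefSeq promoter windows on the rat build GRCr8 were available for 6 of the 8 genes, Insig1, Nsdhl, Fdps, Idi1, Hmgcs1 and Cyp51. Each window ran from 250 bases before to 50 bases after the annotated start. Both strands were searched for a sterol regulatory element core (CACNCCAC), the E-box CACGTG and the CCAAT box, and no match of 1 motif overlapped a match of another in the windows printed. These motifs were present in 5.8%, 6.42% and 37.5% of all 33469 windows of 300 bases. The element core and the E-box were each found in 1 of the 6 windows, that of Insig1, and the CCAAT box in 5 of 6. A match is a description of letters, and no match says only that these letters are not in this window. The 4 windows below run 5′ to 3′ on the gene's strand, with motif matches in capitals. They are those of the regulator Insig1 and of 3 enzymes, and all 4 genes had a probe set that was called lower at 24 h.
Insig1, chr4:8057720-8058019, minus strand: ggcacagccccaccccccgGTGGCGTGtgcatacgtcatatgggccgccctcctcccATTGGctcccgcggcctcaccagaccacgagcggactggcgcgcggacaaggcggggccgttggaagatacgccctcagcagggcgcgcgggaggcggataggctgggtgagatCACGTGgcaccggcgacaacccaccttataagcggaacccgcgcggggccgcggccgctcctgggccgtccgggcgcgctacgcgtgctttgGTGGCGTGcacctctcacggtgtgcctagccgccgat
Nsdhl, chrX:155817110-155817409, plus strand: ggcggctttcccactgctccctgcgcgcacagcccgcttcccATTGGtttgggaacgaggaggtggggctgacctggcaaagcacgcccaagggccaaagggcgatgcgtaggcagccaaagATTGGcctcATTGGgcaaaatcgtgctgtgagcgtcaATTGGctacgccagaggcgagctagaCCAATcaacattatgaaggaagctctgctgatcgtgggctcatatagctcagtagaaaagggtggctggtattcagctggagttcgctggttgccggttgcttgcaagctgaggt
Fdps, chr2:176804767-176805066, minus strand: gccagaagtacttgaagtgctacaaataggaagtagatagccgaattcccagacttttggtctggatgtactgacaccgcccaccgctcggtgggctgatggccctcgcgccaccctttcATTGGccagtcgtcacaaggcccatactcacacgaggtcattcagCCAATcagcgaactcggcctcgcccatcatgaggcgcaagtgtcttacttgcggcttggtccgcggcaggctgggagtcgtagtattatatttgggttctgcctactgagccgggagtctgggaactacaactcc
Cyp51, chr4:30991443-30991742, plus strand: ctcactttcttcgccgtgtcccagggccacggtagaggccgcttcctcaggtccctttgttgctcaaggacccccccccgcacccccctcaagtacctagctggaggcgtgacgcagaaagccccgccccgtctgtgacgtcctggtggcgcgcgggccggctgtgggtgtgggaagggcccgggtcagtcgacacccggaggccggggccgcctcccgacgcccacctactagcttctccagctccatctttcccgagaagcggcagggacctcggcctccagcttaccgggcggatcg
The Insig1 window held the element core at bases -231 to -224 and 14 to 21 from the start, both on the opposite strand, the E-box at bases -79 to -74 and a CCAAT box at bases -193 to -189. The Nsdhl window held 5 CCAAT boxes and the Fdps window 2. The Cyp51 window held none of the 3 motifs.

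Readings and sums are deposited intensities on a linear scale. Before log2, values under a floor of 36.4 were raised to it. Changes are log2 differences of group means with the standard error (SE) of a limma fit of all 10 arrays. A probe set is called, or said to have risen or fallen, when its adjusted p over all 5285 tested probe sets was under 0.05. Median intensity ran from 100.1 to 131.1 over the arrays, and Pearson correlations were 0.9483 to 0.9552 within groups and at most 0.9411 between groups. Of 10 hepatocyte markers, 9 had a probe set and all 9 were above the floor on every array, and 10 of 14 pancreatic acinar markers with a probe set were as well. The summed intensity of the acinar markers was 9955.4 and 10659.3 on the sham arrays, 45154.8 and 47689.3 at 1 h, 2547.1 and 2444.7 at 4 h, 14150.2 and 13794.2 at 8 h, and 2254 and 2801.8 at 24 h. Both arrays were under the floor for 2 of the 14 at 4 h and for 4 at 24 h, and for none in the other groups. Like most of the cholesterol synthesis genes, the acinar sum was highest at 1 h and low at 4 h and 24 h, and its part in their changes was not tested. The hepatocyte sum was 270417.4 and 317362.5 on the sham arrays, 279129.4 and 323454.4 at 1 h, and 229534.5 and 280577 at 4 h. It was 339536.4 and 348865.2 at 8 h, and 289767.3 and 315062.8 at 24 h. Its part in the changes of the cholesterol synthesis genes was not tested either. In bulk liver, fewer cells of a type and less RNA per cell cannot be told apart.

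Most cholesterol synthesis enzymes were lowest at 4 h or 24 h after the burn and nearer sham at 8 h. Sqle was not called against sham at any time. Insig1 read above sham at 1, 4 and 8 h, with a call on 1 probe set at 4 h only, and was lowest at 24 h. At 24 h, 8 of the 17 probe sets had fallen and 0 had risen, and the 8 belonged to 5 genes: Fdft1, Nsdhl, Insig1, Fdps and Cyp51. Among all tested probe sets, 6.34% fell and 3.94% rose at 24 h. At 4 h, 2 probe sets of Fdft1 had fallen and 1 of Insig1 had risen, where 1.99% of all tested probe sets fell and 2.37% rose. At 1 h and at 8 h, limma called 0 of the 17, against 1.44% of all tested probe sets at 1 h and 3.5% at 8 h. At an unadjusted p under 0.05, 4 of the 17 passed at 1 h and 6 at 8 h, where 12% and 18.6% of all tested probe sets did. The F test over the 4 burn times called 10 of the 17, in 6 genes, against 15.3% of all tested probe sets. Fewer were called on leaving out some single arrays, although the 4 h count could also be higher. The 24 h count was 3 or 2 without the first or second sham array and 4 or 2 without the first or second 24 h array. The 4 h count was 1 without either sham array or the first 4 h array, and the F test called 6 without the second 24 h array. Probe sets of 1 gene measure the same transcript and are not independent of each other, and all 4 contrasts share the sham arrays.

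**Figure D1:**
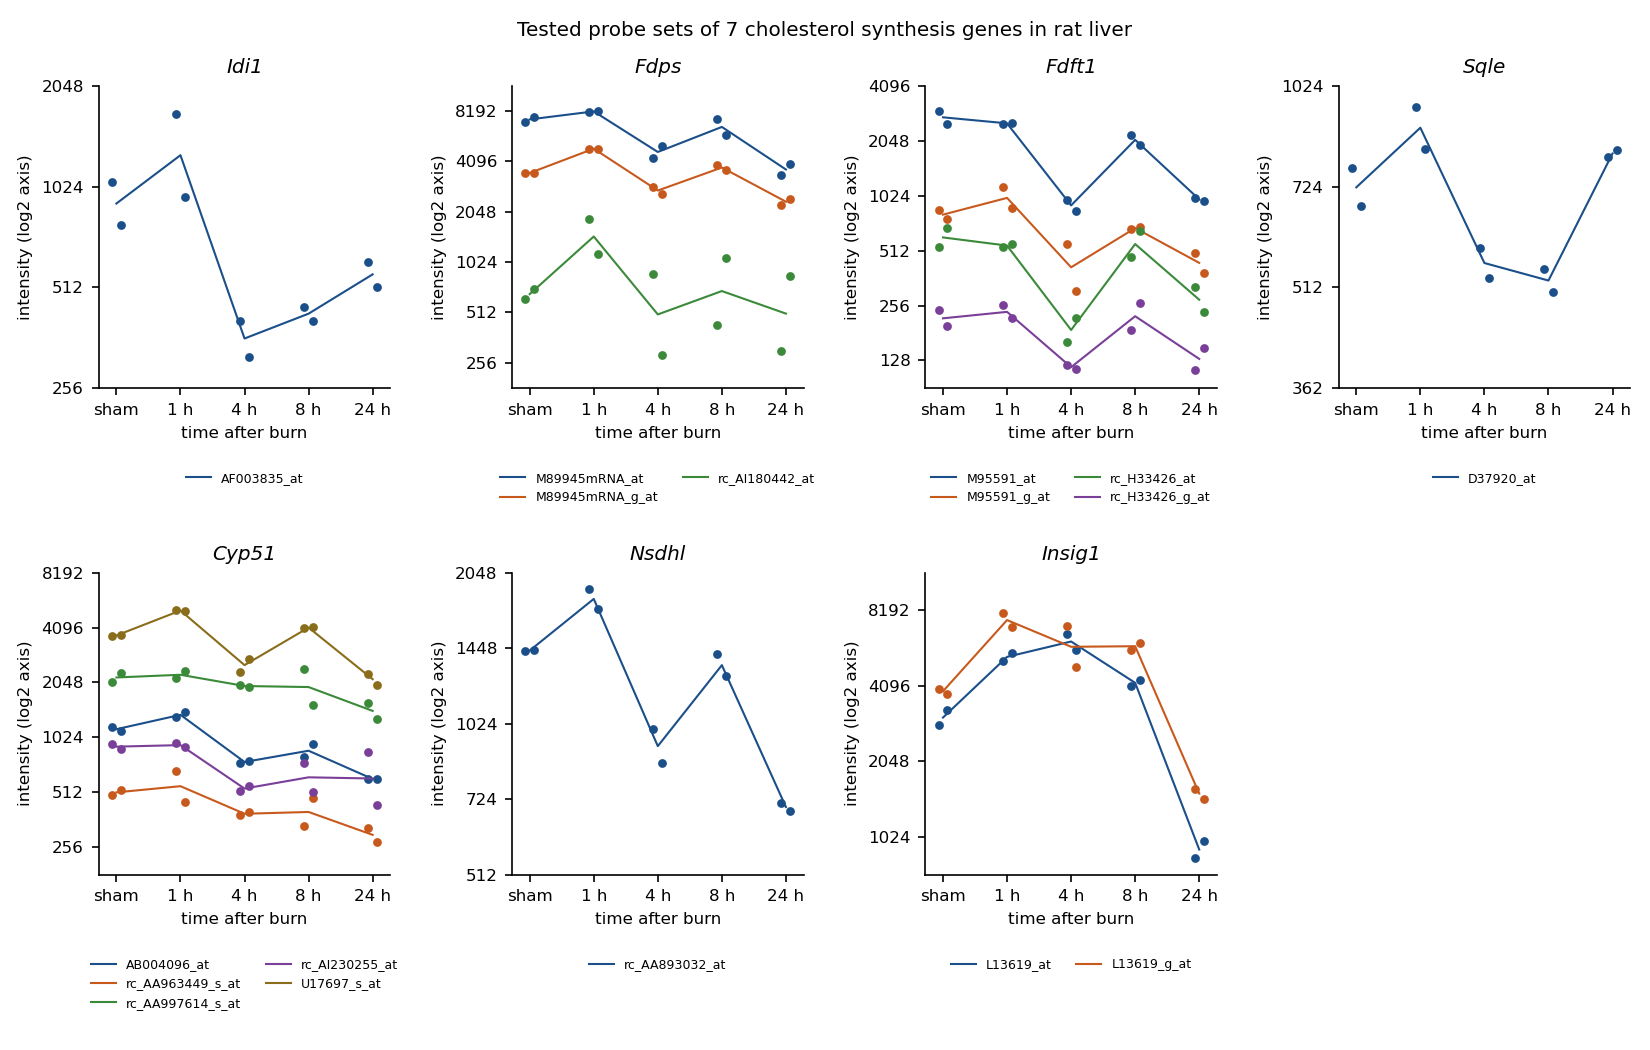
Intensity (log2 axis) of the 17 tested probe sets of 7 genes on each of the 10 arrays, with sham at the left and then 1, 4, 8 and 24 h after the burn. Points are arrays and lines join the geometric means of the 2 arrays of a group. Most lines dip at 4 h and 24 h, while both Insig1 lines stay above sham until 8 h and drop at 24 h.

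The array values showed the same order with no test applied. Both 4 h arrays lay below both sham arrays for 14 of the 17 probe sets and above them for 2, against 25.8% and 20.1% of all tested probe sets. Both 24 h arrays lay below sham for 15 and above it for 1, against 29.2% and 24.6%. At 1 h both arrays lay above sham for 10 and below it for 0, against 21.7% and 20.9%. At 8 h both arrays lay below sham for 8 and above it for 4, against 29.6% and 18.5%. The median log2 change of the 17 probe sets was 0.30 (1 h), -0.60 (4 h), -0.15 (8 h) and -0.80 (24 h), where all tested probe sets had medians of 0.015, -0.037, -0.1 and -0.044. By group mean, 14 of the 17 were highest at 1 h, 9 were lowest at 24 h and 7 at 4 h.

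**Figure D2:**
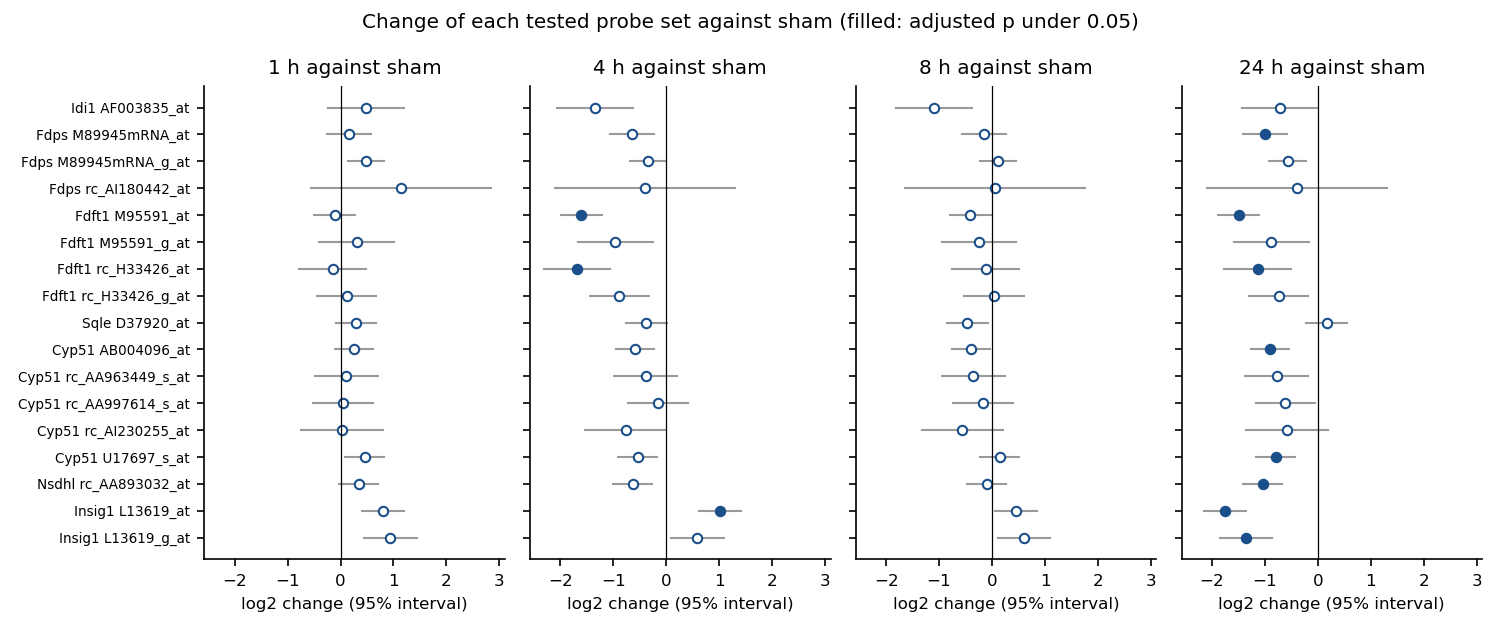
Log2 change against sham at 1, 4, 8 and 24 h for the 17 tested probe sets, with 95% confidence intervals of the limma fit as bars. Filled points had an adjusted p under 0.05: none at 1 h and 8 h, 3 at 4 h and 8 at 24 h.

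Idi1, the isomerase that interconverts the 5-carbon isoprenoid units, was lowest at 4 h. On AF003835_at it read 1053.8 and 788.8 in sham livers, 1691.8 and 955.9 at 1 h, 407.3 and 317.8 at 4 h, 448.2 and 406.7 at 8 h, and 609.2 and 514.1 at 24 h. All 6 arrays from 4 h on lay below all 4 sham and 1 h arrays. The log2 change was -1.34 (SE 0.30, n = 2 and 2) at 4 h, a 2.53-fold lower level, but its adjusted p was 0.0621. It passed in 6 of 18 alternative settings, and over all of them the adjusted p ran from 0.0136 with an intensity trend and robust variance to 0.24 without the second 4 h array. The log2 change was -1.09 at 8 h (adjusted p = 0.11) and -0.70 at 24 h (adjusted p = 0.204), so no contrast of Idi1 with sham passed. Idi1 passed the F test over the burn times (adjusted p = 0.0257), and it was 3.54-fold lower at 4 h than at 1 h (log2 change -1.82, SE 0.30, adjusted p = 0.0183). That last call was lost without the first 1 h array or without either 4 h array, with adjusted p up to 0.114. The other Idi1 probe set, rc_AI045395_at, was not tested, since it was under the floor on 9 of 10 arrays, with intensities of 4.4 to 48. RefSeq lists 1 Idi1 pseudogene, and whether its transcripts add to the signal was not tested.

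Fdps, which makes farnesyl diphosphate, was lowest at 24 h. M89945mRNA_at read 7036.9 and 7599 in sham livers, 8125 and 8205.8 at 1 h, 4326.4 and 5038.1 at 4 h, 7326.1 and 5932.6 at 8 h, and 3417.3 and 3937.2 at 24 h. M89945mRNA_g_at read 3507.7 and 3483.5 in sham livers, 4882.3 and 4890.7 at 1 h, 2875.9 and 2619.6 at 4 h, 3924.1 and 3620.8 at 8 h, and 2264.3 and 2447.4 at 24 h. On both probe sets the arrays at 4 h and 24 h lay below sham and those at 1 h above it. M89945mRNA_at fell 1.99-fold at 24 h (log2 change -0.99, SE 0.18, adjusted p = 0.0155), and its log2 change at 4 h was -0.65 (adjusted p = 0.105). The 24 h call was lost without either sham array or either 24 h array, with adjusted p up to 0.0875. M89945mRNA_g_at was called in no contrast with sham, but fell 1.78-fold at 4 h against 1 h (log2 change -0.83, adjusted p = 0.0217), a call lost without any of the 1 h or 4 h arrays (up to 0.119). The third probe set, rc_AI180442_at, differed between the arrays of a group, with 869.7 and 285.3 at 4 h and 299.5 and 847.6 at 24 h, and was not called. RefSeq lists 5 Fdps pseudogenes, and whether their transcripts add to the signal was not tested.

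Fdft1, which commits farnesyl diphosphate to sterols, fell at both 4 h and 24 h. M95591_at read 2988.2 and 2545.6 in sham livers, 2549.7 and 2562.5 at 1 h, 968.7 and 849.5 at 4 h, 2201.9 and 1955.7 at 8 h, and 1000 and 957.6 at 24 h. The 4 arrays at 4 h and 24 h all read 1000 or less, and the other 6 all read 1955.7 or more. Against sham it fell 3.04-fold at 4 h (log2 change -1.60, SE 0.16, adjusted p = 0.00198) and 2.82-fold at 24 h (log2 change -1.49, SE 0.16, adjusted p = 0.00252). Both calls held without each of the 10 arrays in turn, with adjusted p up to 0.0202 at 4 h and 0.0244 at 24 h. Between those times it was 2.29-fold higher at 8 h than at 4 h (log2 change 1.19, adjusted p = 0.0064), also without each array in turn (up to 0.0422).

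The other 3 probe sets of Fdft1 had the same low points. On rc_H33426_at the arrays read 537.7 and 681.5 in sham livers, 535.2 and 557.1 at 1 h, 162 and 218.4 at 4 h, 470.9 and 658.1 at 8 h, and 323.5 and 235 at 24 h. It fell 3.22-fold at 4 h (log2 change -1.69, SE 0.27, adjusted p = 0.0158), a call lost without either sham array or the first 4 h array, with adjusted p up to 0.0942. At 24 h it fell 2.2-fold (log2 change -1.14, SE 0.27, adjusted p = 0.0401), a call lost on leaving out any array of the sham, 1 h, 4 h and 24 h groups, with adjusted p up to 0.178, and also with quantile normalization and without the filter. M95591_g_at read 851.2 and 765.6 in sham livers, 556.8 and 309.4 at 4 h and 496.9 and 388 at 24 h. On rc_H33426_g_at the arrays read 241.4 and 196.8 in sham livers, 120.5 and 114.8 at 4 h and 113.9 and 149.7 at 24 h. On both, the burn arrays lay below the sham arrays at those times without a call.

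Sqle, the epoxidase that acts on squalene, had no call against sham at any time. D37920_at read 771.4 and 676.4 in sham livers, 954.2 and 824.4 at 1 h, 586.4 and 528.4 at 4 h, 545.4 and 503.5 at 8 h, and 802.8 and 820.3 at 24 h. The arrays at 4 h and 8 h lay below sham, and those at 1 h and 24 h above it. Taken singly, both arrays lay below sham for 25.8% (4 h) and 29.6% (8 h) of all tested probe sets. They lay above it for 21.7% (1 h) and 24.6% (24 h). No contrast with sham passed: the log2 change was -0.38 at 4 h (adjusted p = 0.292), -0.46 at 8 h (adjusted p = 0.189) and 0.17 at 24 h (SE 0.16, adjusted p = 0.582). The 95% interval at 24 h ran from -0.213 to 0.549. Sqle was 1.55-fold higher at 24 h than at 8 h (log2 change 0.63, SE 0.16, adjusted p = 0.0489), a call lost when any array was left out, with adjusted p up to 0.177, and with quantile normalization (0.0802).

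Cyp51, the lanosterol demethylase, had 5 probe sets, of which 2 fell at 24 h. U17697_s_at read 3662.3 and 3747.2 in sham livers, 5124.6 and 5027.6 at 1 h, 2349.9 and 2763 at 4 h, 4089.7 and 4098.6 at 8 h, and 2290.8 and 1987.4 at 24 h. AB004096_at read 1165.8 and 1103.9 in sham livers, 1318.4 and 1403.2 at 1 h, 744.9 and 755 at 4 h, 794.2 and 940.8 at 8 h, and 608 and 602.4 at 24 h. Arrays of a group lay close together on both, and both were above sham at 1 h and below it at 4 h and 24 h. At 24 h AB004096_at fell 1.87-fold (log2 change -0.91, SE 0.15, adjusted p = 0.0131) and U17697_s_at 1.74-fold (log2 change -0.80, SE 0.16, adjusted p = 0.0226). Both calls were lost without either sham array or either 24 h array, with adjusted p up to 0.0679 and 0.119. At 8 h the probe sets differed in direction, with AB004096_at below sham and U17697_s_at above it, neither called. The other 3 probe sets were called in no contrast: rc_AA963449_s_at ran from 274.4 to 670.4 over all arrays, rc_AA997614_s_at from 1290.7 to 2424 and rc_AI230255_at from 434.7 to 952.4. On each of them both arrays at 4 h and at 24 h lay below sham, as for 25.8% and 29.2% of all tested probe sets. In that order their log2 changes were -0.39, -0.155 and -0.763 at 4 h and -0.774, -0.609 and -0.58 at 24 h.

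Nsdhl, a dehydrogenase of the demethylation steps, fell at 24 h. On rc_AA893032_at it read 1431.2 and 1432.6 in sham livers, 1904 and 1730.4 at 1 h, 997 and 855.1 at 4 h, 1409.3 and 1272.5 at 8 h, and 711.4 and 685 at 24 h. No array of 1 group overlapped those of another. It fell 2.05-fold at 24 h (log2 change -1.04, SE 0.16, adjusted p = 0.00872), and its log2 change at 4 h was -0.63 (adjusted p = 0.0796). The 24 h call was lost without the second sham array or the second 24 h array, with adjusted p up to 0.0556. RefSeq lists 1 Nsdhl pseudogene, and its share in the signal was not tested.

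Insig1, the regulator, differed from the enzymes at 4 h, when it was above sham. L13619_at read 2859.4 and 3278.3 in sham livers, 5163.6 and 5531.1 at 1 h, 6622.3 and 5718.7 at 4 h, 4093.5 and 4331.6 at 8 h, and 842.8 and 984.8 at 24 h. L13619_g_at read 3988.8 and 3808.5 in sham livers, 8015.8 and 7004.2 at 1 h, 7080.3 and 4855.1 at 4 h, 5699.2 and 6095.5 at 8 h, and 1595.7 and 1453.9 at 24 h. On both probe sets every array at 1, 4 and 8 h lay above both sham arrays, and both 24 h arrays lay below them. Taken singly, both arrays lay above sham for 21.7% (1 h), 20.1% (4 h) and 18.5% (8 h) of all tested probe sets. At 24 h both lay below sham for 29.2%. L13619_at rose 2.01-fold at 4 h (log2 change 1.01, SE 0.17, adjusted p = 0.0191), a call lost without either sham array or either 4 h array, with adjusted p up to 0.1. L13619_g_at had a log2 change of 0.59 at 4 h (adjusted p = 0.199), and at 1 h the changes were 0.80 (adjusted p = 0.0885) and 0.94 (adjusted p = 0.104) on the 2 probe sets, none of them called. At 8 h they were 0.46 (limma adjusted p = 0.211) and 0.60 (limma adjusted p = 0.191), also without a call.

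At 24 h Insig1 had the largest decrease among the 17 probe sets. L13619_at fell 3.36-fold (log2 change -1.75, SE 0.17, adjusted p = 0.00153), which held without each array in turn and when only the sham and 24 h arrays were fitted (adjusted p = 0.0486). L13619_g_at fell 2.56-fold (log2 change -1.36, SE 0.21, adjusted p = 0.00955), a call lost without either sham array or the second 24 h array, with adjusted p up to 0.0588. From 8 h on the change was larger than against sham: the level at 24 h was 4.62-fold lower than at 8 h on L13619_at (log2 change -2.21, adjusted p = 0.000709) and 3.87-fold lower on L13619_g_at (log2 change -1.95, adjusted p = 0.00224). Both of these held without each array in turn. The highest group mean of L13619_at, at 4 h, was 6.75 times the lowest, at 24 h. Among the other genes the largest such ratios were 3.53 for Idi1, 3.22 for Fdft1 on rc_H33426_at and 2.93 for Fdps on rc_AI180442_at. That Fdps probe set differed between the arrays of a group. The other 2 of Fdps had ratios of 2.23 and 2.08, below the 2.6 of Nsdhl.

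Over the steps between neighbouring times the median change was negative, then positive, then negative, although single genes departed from this. At 4 h against 1 h, 7 of the 17 probe sets fell and 0 rose, in the 5 genes Fdft1, Nsdhl, Fdps, Idi1 and Cyp51, where 2.54% of all tested probe sets fell and 2.46% rose. At 8 h against 4 h, 3 rose and 0 fell, 2 of Fdft1 and 1 of Cyp51, where 3.48% of all rose and 4.81% fell. At 24 h against 8 h, 7 fell in the 5 genes Fdft1, Nsdhl, Insig1, Fdps and Cyp51 and 1 rose, that of Sqle, where 5.94% of all fell and 5.81% rose. The median log2 change of the 17 over these steps was -0.86, 0.46 and -0.68, against -0.054, -0.068 and 0.07 for all tested probe sets. Of the 17, 16 were negative at the first step, 14 positive at the second and 15 negative at the third. Insig1 (L13619_at) departed at the first. Sqle, Insig1 (L13619_at) and Cyp51 (rc_AA997614_s_at) departed at the second, and Sqle and Idi1 at the third. Idi1 had a log2 change of 0.25 at the second step, without a call. The count of calls at 4 h against 1 h was 1 or 2 without the first or second 1 h array and 3 or 2 without the first or second 4 h array. At 8 h against 4 h it was 1 without the first 4 h or the second 8 h array. At 24 h against 8 h it was 3 or 5 without the first or second 8 h array and 4 or 2 without the first or second 24 h array. The pancreatic acinar sum given above moved the same way at each step. The 9 hepatocyte markers had median log2 changes of -0.30, 0.52 and -0.27 over the same steps. The part of either in these changes was not tested.

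Over the 10 arrays and with 1 probe set a gene, the genes correlated in pairs at -0.282 to 0.956 (Pearson's r of log2 values, 21 pairs). The highest was Nsdhl with Fdps, and Sqle with Idi1 reached 0.829. Apart from that pair, Sqle had low values, from -0.282 with Insig1 to 0.244 with Fdft1. Insig1 correlated at 0.462 to 0.762 with Fdft1, Nsdhl, Fdps and Cyp51 and at 0.161 with Idi1. These arrays share their 5 groups, so the values describe the time courses and are not independent of the contrasts. The mean z-score of the 7 genes was 0.559 and 0.384 on the sham arrays, 1.263 and 0.942 at 1 h, -0.603 and -0.788 at 4 h, 0.162 and -0.066 at 8 h, and -0.887 and -0.966 at 24 h. Among all other named genes the profile most like it was Acly, ATP citrate lyase, which supplies acetyl-CoA (J05210_at, r = 0.983 over 10 arrays). The next 4 were the pancreatic enzymes Amy2a3 (0.961), Cpb1 (0.96), Pla2g1b (0.955) and Prss1 (0.95). The most opposite were Dlat, a subunit of pyruvate dehydrogenase (-0.968), the glycolytic enzyme Aldoa (-0.965) and the drug-metabolising enzyme Cyp2b2 (-0.959).

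**Figure D3:**
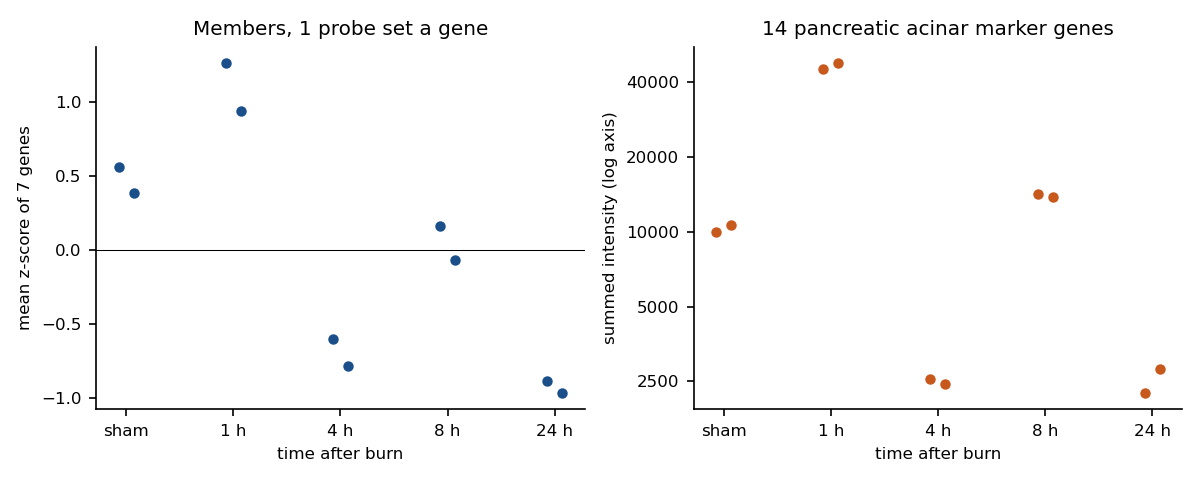
Mean z-score of the 7 cholesterol synthesis genes (left, 1 probe set a gene) and summed intensity of 14 pancreatic acinar marker genes (right, log axis) on each array, with sham at the left and then 1, 4, 8 and 24 h. Both are highest at 1 h and low at 4 h and 24 h, with acinar sums of 45154.8 and 47689.3 at 1 h against 2254 and 2801.8 at 24 h.

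Of the other genes of sterol synthesis, 10 had a probe set and 9 were tested, each by its brightest tested probe set. At 4 h, 2 of the 9 fell, Acly and Msmo1, and at 24 h 2 fell, Acly and Acat2, with 0 risen at either time. Among all tested probe sets, 1.99% fell and 2.37% rose at 4 h, and 6.34% fell and 3.94% rose at 24 h. At 1 h limma called 0 of the 9 (1.44% of all), with 1 at an unadjusted p under 0.05 (12% of all). At 8 h 1 rose, Ebp, where 3.5% of all were called in either direction. The median log2 change of the 9 was 0.16, -0.64, -0.04 and -0.59 at 1, 4, 8 and 24 h. For all tested probe sets it was 0.015, -0.037, -0.1 and -0.044. The F test called 5 of the 9, namely Acat2, Acly, Ebp, Lss and Msmo1, against 15.3% of all tested probe sets. The acinar sum was low at both times at which these genes fell.

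Msmo1, the methylsterol monooxygenase that acts beside Nsdhl, had a larger decrease at 4 h than any of the 17 probe sets. E12625cds_at read 3417.1 and 3158.5 in sham livers, 3758.5 and 3356.2 at 1 h, 687.9 and 610.1 at 4 h, 2529.8 and 2873.5 at 8 h, and 1933.6 and 2089.2 at 24 h. It fell 5.07-fold at 4 h (log2 change -2.34, SE 0.16, adjusted p = 0.000453), and rc_AI172293_at fell 4.89-fold (log2 change -2.29, adjusted p = 0.00728, but 0.052 without the first sham array). At 24 h E12625cds_at fell 1.64-fold (log2 change -0.71, adjusted p = 0.0363), a call lost when any array was left out, with adjusted p up to 0.163, and rc_AI172293_at was not called. Acly read 3493.9 and 3664.7 in sham livers on J05210_g_at, 4182 and 3806.4 at 1 h, 1404.8 and 1324.3 at 4 h, 3040.6 and 2707.6 at 8 h, and 1665 and 1476.9 at 24 h. It fell 2.62-fold at 4 h (log2 change -1.39, adjusted p = 0.00316) and 2.28-fold at 24 h (log2 change -1.19, adjusted p = 0.0051). The Acly calls on J05210_g_at and the 4 h call of E12625cds_at held without each array in turn. On J05210_at Acly fell at 4 h (log2 change -1.30, limma adjusted p = 0.00831) and 24 h (log2 change -1.67, limma adjusted p = 0.00227). That 4 h call was lost without either sham array, with log2 changes of -1.47 to -1.13 over all arrays left out. The third Acly probe set, L27075_g_at, was not called against sham.

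Calls in the rest of that list were less stable. Acat2, the thiolase that makes acetoacetyl-CoA, fell 1.96-fold at 24 h on rc_AA859980_g_at (log2 change -0.97, adjusted p = 0.0345), a call lost without any of the sham, 1 h or 24 h arrays, with adjusted p up to 0.162. Ebp, a sterol isomerase, rose 1.92-fold at 8 h (log2 change 0.94, adjusted p = 0.0465), lost when any array was left out, with adjusted p up to 0.188. Its arrays read 3111.8 and 2426.5 at 8 h, against 1378.6 and 1484.5 in sham livers. Dhcr7, which makes cholesterol in the last step of a branch, fell at 24 h on AB016800_at (log2 change -1.02, adjusted p = 0.0133, up to 0.0777 without the first sham array or either 24 h array), while AB016800_g_at was not called. Lss, lanosterol synthase, fell at 24 h on E12275cds_s_at (log2 change -2.34, adjusted p = 0.0085, but 0.0506 without the first sham array, and log2 change -1.58 with the floor at the 50th percentile), while D45252_s_at and U31352_at were not called.

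**Figure D4:**
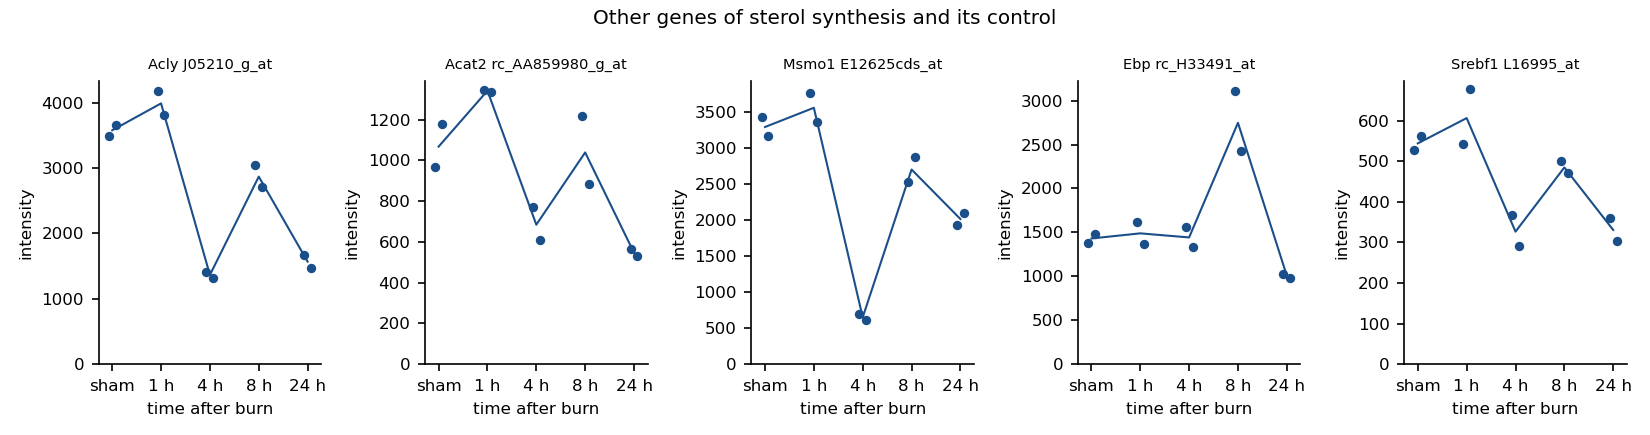
Intensity (linear axis from 0) of 4 further sterol synthesis genes, Acly, Acat2, Msmo1 and Ebp, and of the regulator Srebf1 on each array, with sham at the left and then 1, 4, 8 and 24 h. Points are arrays and lines join geometric means. Msmo1 and Acly are lowest at 4 h and Ebp is highest at 8 h, at 3111.8 and 2426.5 against 1378.6 and 1484.5 in sham livers.

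Of the regulators of the pathway, 6 had a probe set and 4 were tested. Limma called 0 of the 4 against sham at any time, and at an unadjusted p under 0.05 the numbers at 1, 4, 8 and 24 h were 0, 2, 0 and 3, where the shares of all tested probe sets were 12%, 17.4%, 18.6% and 25.6%. Srebf1, an SREBP gene, read 527.2 and 561.1 in sham livers, 542.8 and 677 at 1 h, 367.6 and 289.8 at 4 h, 499.8 and 469.8 at 8 h, and 359.8 and 303.5 at 24 h. Its arrays at 4 h and 24 h lay below all others, and it passed the F test (adjusted p = 0.0467). Nr1h3, the oxysterol receptor LXR alpha, also passed the F test (adjusted p = 0.0429). It read 607.7 and 647.8 in sham livers and 535.6 and 631.4 at 1 h. Later readings were 423.2 and 430.9 at 4 h, 744.1 and 780.2 at 8 h, and 490.7 and 476.5 at 24 h. Its arrays at 4 h and 24 h lay below sham and those at 8 h above it. It rose at 8 h against 4 h (log2 change 0.835, limma adjusted p = 0.0193) and fell at 24 h against 8 h (log2 change -0.656, limma adjusted p = 0.0346).

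Among genes of cholesterol uptake and handling, the calls against sham were of Cyp7a1 and Lipc. Of the 24 listed, 9 had a probe set and 8 were tested, and no probe set was named for the low-density lipoprotein receptor. Limma called 0 of the 8 at 1 h and at 4 h, with 1 at an unadjusted p under 0.05 at each time (12% and 17.4% of all). At 8 h Cyp7a1 rose and Lipc fell, and at 24 h Cyp7a1 fell and 0 of the 8 rose. Among all tested probe sets, 1.44% were called at 1 h and 3.5% at 8 h, in either direction. At 4 h 1.99% of all fell and 2.37% rose, and at 24 h 6.34% fell and 3.94% rose. The median log2 change of the 8 was 0.03, -0.02, 0.13 and -0.48 at 1, 4, 8 and 24 h. For all tested probe sets it was 0.015, -0.037, -0.1 and -0.044. Scarb1, the receptor for high-density lipoprotein, was not called against sham, with 1433 and 1222.1 at 24 h on AF071495_s_at, against 2106.8 and 2036.8 in sham livers. Its other probe sets overlapped sham at 24 h. D89655_at read 417.1 and 370.5, against 325.6 and 607.5 in sham livers. On rc_AA874843_s_at the arrays read 1184.8 and 988.5, against 1138.1 and 1797.6.

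Cyp7a1, the rate-limiting enzyme of bile acid synthesis from cholesterol, read 2289.4 and 2309.2 in sham livers, 3674.7 and 3328.3 at 1 h, 1405.9 and 1708.8 at 4 h, 4700.9 and 3832.9 at 8 h, and 293.8 and 326.4 at 24 h. It was high and low at the same times as most of the synthesis enzymes, except that it was highest at 8 h. It fell 7.43-fold at 24 h (log2 change -2.89, SE 0.18, adjusted p = 0.000291), which held without each array in turn. Its call at 8 h (log2 change 0.89, adjusted p = 0.0483) was lost when any array was left out, with adjusted p up to 0.183, and with quantile normalization (0.0554). Lipc, hepatic lipase, read 1065.6 and 843.3 at 8 h, against 2199.5 and 2442.9 in sham livers (log2 change -1.29, SE 0.18, adjusted p = 0.0185). That call was lost without either sham array or the second 8 h array, with adjusted p up to 0.0873.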

How the data were processed

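Rat liver RNA was measured on 10 arrays. The deposited values are linear intensity readings, and the sources used here do not give the software that made them. Means trimmed by 2% at both ends ran from 500.91 to 501.04, so no rescaling was applied. Each array's 25th percentile was taken, and values below the median of these (36.4) were raised to it before log2. Probe sets above their array's median on at least 2 of 10 arrays were tested (5285 of 8799). The probe table gave 1 symbol to 7018 probe sets, several to 308, and did not list 1473.

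limma 3.58.1 in R 4.3.3 fitted 5 group means in 1 model without covariates (5 residual degrees of freedom). Contrasts were two-sided with Benjamini-Hochberg adjustment over all tested probe sets, and the method was tested on simulated data. A fold is a ratio of geometric means. Named were all member probe sets, listed pathway genes called against sham or by the F test, and the 5 genes most like and 3 most unlike the members' mean z-score. Scarb1 was named in addition, without a call. The members, lists and tests were chosen with earlier results of these data known. The number of arrays limits the precision. Alternatives were quantile normalization, floors at the 10th and 50th percentile, a robust fit with an intensity trend, omission of the filter, a replicate block, only the groups compared, and omission of each array in turn; the fit without the 1 h arrays was added after seeing the data. Where 1 array remained, the spread of the other groups was assumed for it.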

Additional observations from a re-analysis of the deposited data

Results flagged for a closer look

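Steps between neighbouring times passed the test for 18 results of the cholesterol synthesis genes, so that the change against sham differed between those times. At 4 h against 1 h the log2 change was -1.49 for Fdft1 on M95591_at and -1.54 on rc_H33426_at, -0.98 for Nsdhl, -0.83 for Fdps on M89945mRNA_g_at, -1.82 for Idi1, and -0.86 and -0.99 for Cyp51 on AB004096_at and U17697_s_at. At 8 h against 4 h it was 1.19 and 1.56 for Fdft1 on M95591_at and rc_H33426_at and 0.68 for Cyp51 on U17697_s_at. At 24 h against 8 h it was -1.08 for Fdft1 on M95591_at, -0.94 for Nsdhl, -2.21 and -1.95 for Insig1 on L13619_at and L13619_g_at, 0.63 for Sqle, -0.85 and -0.68 for Fdps on M89945mRNA_at and M89945mRNA_g_at, and -0.94 for Cyp51 on U17697_s_at. Without each array in turn, 4 of these held, those of Fdft1 on M95591_at at 4 h and 8 h and both of Insig1. At 4 h against 1 h the adjusted p reached 0.118 for rc_H33426_at and 0.119 for Fdps (any 1 h or 4 h array), 0.0952 for Nsdhl (either 1 h or the second 4 h array), 0.114 for Idi1 (first 1 h or either 4 h array), 0.132 for AB004096_at (any 1 h, 4 h or 24 h array) and 0.087 for U17697_s_at (either 1 h or the first 4 h array). At 8 h against 4 h it reached 0.0881 for rc_H33426_at (first 4 h or second 8 h array) and 0.175 for U17697_s_at (any array), which was also lost with quantile normalization (0.0523). At 24 h against 8 h it reached 0.0512 for Fdft1 (second 24 h array), 0.0667 for Nsdhl and 0.127 for M89945mRNA_at (first 8 h or either 24 h array), 0.127 for M89945mRNA_g_at (any 1 h, 8 h or 24 h array), 0.0736 for U17697_s_at (either 8 h or the second 24 h array) and 0.177 for Sqle (any array). Adjacent steps share the arrays of the time between them. The groups of 2 arrays were too small for a test of outlying arrays.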

How the results depend on the processing

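Of 29 member calls over the 7 contrasts, 7 held without each of the 10 arrays in turn, 26 were lost when only the 2 groups compared were fitted, and 0 changed sign. Leaving out single arrays gave 0 to 0 calls at 1 h, 1 to 4 at 4 h, 0 to 0 at 8 h, 2 to 8 at 24 h, 1 to 7 for 4 h against 1 h, 1 to 2 for 8 h against 4 h, 2 to 7 for 24 h against 8 h and 6 to 10 in the F test. With only the groups compared, the calls were 0 at 4 h, 1 at 24 h, 0 for 4 h against 1 h, 0 for 8 h against 4 h and 2 for 24 h against 8 h. With the floor at the 50th percentile they were 2 at 1 h, 6 at 4 h, 11 for 4 h against 1 h and 5 for 8 h against 4 h. Without the filter they were 1 at 1 h, 5 at 4 h and 5 for 8 h against 4 h. With an intensity trend and robust variance they were 3 at 1 h, 8 at 4 h, 1 at 8 h and 7 for 8 h against 4 h. The shares of all tested probe sets called in the alternative settings are not given here. Whether the counts of the members differ from those shares was not tested. The replicate numbers did not pair the arrays: deviations of same-numbered arrays correlated at 0.011 to 0.17 over 10 pairs of groups. The fit with the replicate number as a block gave 0, 4, 0 and 8 calls at 1, 4, 8 and 24 h, 8, 2 and 8 over the steps and 12 in the F test. Under that block the calls of Cyp7a1 at 8 h (adjusted p = 0.0694) and of Cyp51 (U17697_s_at) at 8 h against 4 h (adjusted p = 0.0553) were lost, and Idi1 passed at 4 h (adjusted p = 0.0214). Without the 1 h arrays, a setting chosen after seeing the data, the calls were 4 at 4 h, 0 at 8 h and 7 at 24 h. Changes that were not called turned sign for Fdft1 (M95591_at) at 1 h without the first sham array, at -0.225 to 0.006 over all arrays left out, and for Fdps (M89945mRNA_at) at 8 h without the second 8 h array, at -0.302 to 0.003. The causes were not tested.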

Other observations

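Of 5 tested fatty acid synthesis genes known as SREBP-1 targets, each by its brightest probe set, Gpam fell at 4 h and 24 h and Scd at 8 h, with 0 risen at any time. Among all tested probe sets, 1.99% fell at 4 h and 6.34% at 24 h, and 3.5% were called in either direction at 8 h. Scd, a fatty acid desaturase, read 709.1 and 801 at 8 h, against 2123.1 and 2681.6 in sham livers (log2 change -1.66, SE 0.17, limma adjusted p = 0.00605), and 3241.5 and 3349.7 at 4 h, when most sterol enzymes were low. Gpam, which starts glycerolipid synthesis, read 65 and 69.2 at 4 h and 53.9 and 75.1 at 24 h on U36773_at, against 671.4 and 499 in sham livers. Its log2 change was -3.11 at 4 h (limma adjusted p = 0.0212) and -3.19 at 24 h (limma adjusted p = 0.0139), and both calls were lost without either sham array or either array of that time, with adjusted p up to 0.112 at 4 h and 0.0785 at 24 h. The 4 h call was also lost without the filter (limma adjusted p = 0.064), and with the floor at the 50th percentile both changes were -2.25 on the log2 scale. On U36773_g_at and U36771_g_at Gpam also fell at both times, and these calls held without each array in turn. Their limma adjusted p was 0.00121 and 0.0046 at 4 h and 0.00104 and 0.00383 at 24 h. U36771_g_at read below the floor at both times, and with the floor at the 50th percentile U36773_g_at was not called (log2 change -0.43). At 8 h U36771_g_at fell too (limma adjusted p = 0.0217), lost without either sham or either 4 h array. U36771_at and U36772_at had no call against sham. Me1, malic enzyme, passed the F test on rc_AI171506_g_at (limma adjusted p = 0.0327) without a call against sham on that probe set, while rc_AI008020_at rose at 24 h (log2 change 0.96, limma adjusted p = 0.0292). That rise was lost without either sham array or either 24 h array, with adjusted p up to 0.139, and M26594_at read lower, at 266 and 218.7 at 24 h, against 333.8 and 339.2 in sham livers (log2 change -0.48, limma adjusted p = 0.15). Summed phagocyte markers were 2944.2 to 2981.6 at 24 h and 3398.9 to 3841.5 at 4 h, against 4321.4 to 4387.1 in sham livers, and their part in any change was not tested.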
